A study of Mus musculus with 12 samples.

Results

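The comparison described here asked how splenocytes differed after coculture with tumour cells when purified SEMA3A protein was added to the culture. It used 6 of the 12 arrays of the series, chosen by their treatment label: 3 SEMA3A arrays and 3 control arrays. Each array held total RNA from splenocytes, the mixed white cells of the spleen, of DBA/2 mice aged 10 weeks. In both groups the splenocytes had been kept for 9 days with KLN-205KD, a line of the mouse squamous lung carcinoma KLN-205 in which SEMA3A had been knocked down. Interleukin-2, the growth factor of activated T cells, was given at 100 units/mL at intervals of 3 days, again to both groups. By the labels, the SEMA3A group differed only in the purified protein, at 10 µg/mL. The remaining 6 arrays came from KLN-205KD cells that overexpressed SEMA6A, 3 without (SEMA6A) and 3 with the purified protein (SEMA6A and SEMA3A). The knockdown was thus carried by every group, the controls included, and the labels do not say how many animals or separate cultures lay behind the 3 arrays of a group. The p-values below therefore measure the spread between these arrays, which may be technical.

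SEMA3A is a secreted semaphorin. It binds neuropilin-1, which has no signalling domain of its own and passes the signal on through plexins of the A class, and the plexins act on small GTPases, integrins and the actin cytoskeleton. In neurons this signal turns growing axons away, and in T cells neuropilin-1 is found on regulatory cells and on cells activated by antigen. A splenocyte culture held for days with interleukin-2 and tumour cells is enriched for dividing cytotoxic lymphocytes, which use glycolysis heavily and carry inhibitory receptors such as PD-1 and CTLA-4.

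The lymphocyte content could be checked against markers. The T cell receptor chain gene Cd3e read 4872, 4039 and 4389.8 on the control arrays, and Gzmb, the gene of the cytotoxic protease granzyme B, read 43336, 38147 and 47885, in units of the authors' scaled signal. Markers of other cells were present in part. Krt14, a keratin of squamous epithelium, Adgre1, the macrophage antigen F4/80, and the B cell receptor gene Cd79a did not pass the filter on dim probe sets, but 14 of 27 epithelial, 14 of 29 macrophage and monocyte and 4 of 14 B cell markers did, with the values given below. In bulk RNA of this kind, fewer cells of a type and less RNA per cell cannot be told apart.

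The arrays of a group were not equally alike, and this bears on every result below. Across the tested genes, SEMA3A replicate 3 correlated with the control arrays at r = 0.988 to 0.991, as the control arrays did among themselves (0.989 to 0.991), whereas replicates 1 and 2 lay at 0.980 to 0.985. Counted by gene, 1230 genes on SEMA3A replicate 1 and 1020 on replicate 2 were at least 1.5-fold from the control mean, against 493 on replicate 3. Each control array, set against the mean of the other control arrays, had 514 to 623 such genes. An array measure of RNA integrity also differed between the groups: the signal at the 3′ end of the transferrin receptor mRNA over that at its 5′ end was 6.82, 8.41 and 9.34 on the control arrays and 17.2, 17.6 and 18.1 on the SEMA3A arrays. The 5′ probe set was dim, at 45.9 to 60.5 on the control and 24.6 to 29.1 on the SEMA3A arrays. The same ratios for Gapdh (0.771 to 0.818 over the 6 arrays) and Actb (0.993 to 1.07) overlapped between the groups, while that of pyruvate carboxylase lay the other way, at 8.26, 7.80 and 7.01 on the control and 6.66, 6.90 and 5.78 on the SEMA3A arrays, without overlap. Replicate 3 had the transferrin receptor ratio of its group although many of its genes read as in the controls; the part of RNA integrity in the results was not tested.

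No gene passed the threshold. Of the 11325 genes tested with limma on quantile-normalised log2(signal + 16), 0 (0%) differed between the SEMA3A and the control arrays at an adjusted p below 0.05, and the lowest adjusted p was 0.55. At an unadjusted p below 0.05, 553 genes (4.88%) were higher and 438 (3.87%) lower with SEMA3A. Centring every array on its median in place of quantile normalisation turned that split to 314 higher and 715 lower, so the balance of directions over all genes was not settled. On the normalised scale all 3 SEMA3A arrays lay above all 3 control arrays for 1125 genes (9.93%) and below them for 827 (7.30%). With the difference written throughout as SEMA3A minus control on that log2 scale, and its standard error after ±, 278 genes were at least 1.5-fold higher and 161 at least 1.5-fold lower. The differences had a median standard error of 0.153, and their 95% intervals reached a median of 0.33 to either side, so a smaller difference of a typical gene could not be told from 0. Without SEMA3A replicate 3, 1737 genes had an unadjusted p below 0.05 and the lowest adjusted p was 0.091; without replicate 1 the count was 408. Because no gene passed, the values below describe these arrays, and the words higher and lower refer to the measured means. Signals are printed as deposited, and statements that the groups overlap or do not refer to the printed signals unless given as counts.

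**Figure D1:**
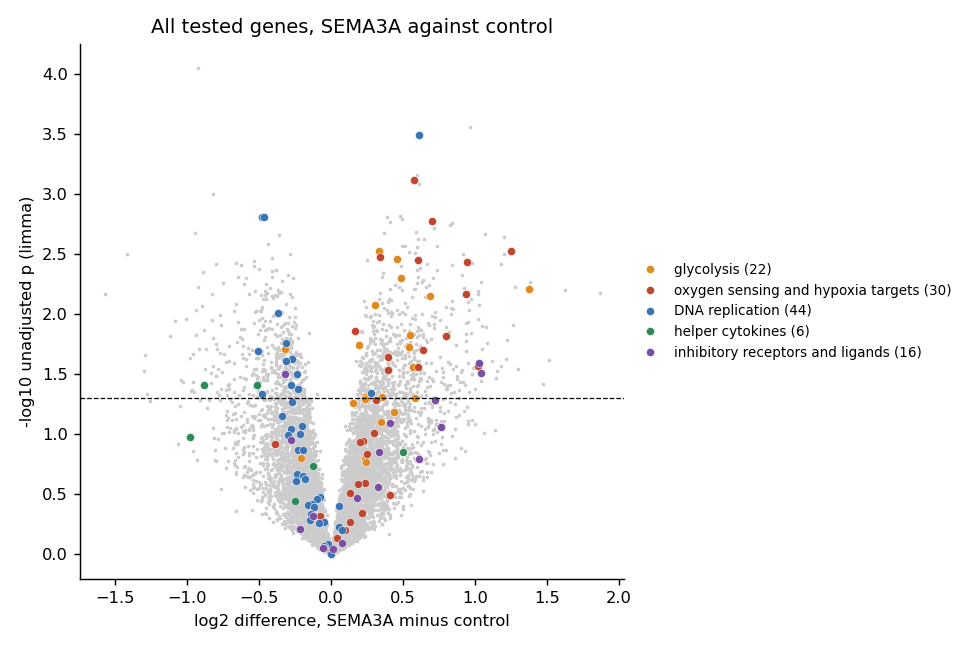
Log2 difference, SEMA3A minus control (x axis), against -log10 of the unadjusted p from limma's fit across all genes (y axis) for all 11325 tested genes in grey, with the tested members of 5 gene lists in colour and their number in the key, and a dashed line at an unadjusted p of 0.05. Glycolysis and hypoxia genes lie mostly right of 0 and DNA replication genes mostly left of it, and no gene has an adjusted p below 0.05.

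On the higher side, with clones, predicted genes and receptor segments left aside, Mcm6 had the smallest p; it encodes a subunit of the helicase that opens DNA at replication origins. It read 8061, 8749 and 7617 on the control arrays and 11441, 12765 and 13476 on the SEMA3A arrays, a difference of 0.61 ± 0.13 (SE, n = 3 and 3). The groups did not overlap, and replicate 3 was the highest SEMA3A array. Tspo, the outer mitochondrial membrane protein that binds cholesterol, read 2442, 2125 and 1897 on the control arrays and 4067, 3712 and 2896 on the SEMA3A arrays, and again every SEMA3A array was above every control array. Gzf1, a zinc finger transcription factor, read 313, 277 and 279.7 on the control arrays and 472, 453 and 418 on the SEMA3A arrays and did not overlap either. Of the other genes on that side, Zfp825 differed by 0.61 ± 0.14, Cert1, the ceramide transfer protein, by 0.39 ± 0.10, Mterf2, a mitochondrial termination factor family member, by 0.49 ± 0.12, and Snrnp70, a protein of the U1 spliceosomal particle, by 0.41 ± 0.11. Nlgn2, a neuroligin, differed by 0.84 ± 0.21, Whamm, which promotes actin assembly at membranes, by 0.83 ± 0.21, and Stk11ip, which binds the kinase LKB1, by 0.59 ± 0.15. The remaining 2 of these 12 genes, Fam162a and Bnip3, belong to the hypoxia genes described below. Cert1, Nlgn2 and Whamm had other probe sets that lay on the other side of 0, down to -0.69, -0.28 and -0.18.

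On the lower side, Nsg2, an endosomal protein best known from neurons, had the smallest p of all genes (unadjusted p = 8.9e-05; adjusted p = 0.55 in limma). It read 161, 129.7 and 165 on the control arrays and 72.9, 63.4 and 87.1 on the SEMA3A arrays, so that every SEMA3A array was below every control array. Tnfsf8, the CD30 ligand of activated T cells, read 165, 84.6 and 122 on the control arrays and 45.1, 66.3 and 59.6 on the SEMA3A arrays; it was lower on all 3 SEMA3A arrays, though the control arrays themselves were widely spread. Ccne2, cyclin E2 of the G1/S transition, read 1145, 1299 and 1154 on the control arrays and 554, 603 and 894 on the SEMA3A arrays, with replicate 3 between the other SEMA3A arrays and the controls. The difference was -0.92 ± 0.17 for Nsg2, -0.94 ± 0.25 for Tnfsf8 and -0.82 ± 0.19 for Ccne2. Rab5a, the GTPase of early endosomes, differed by -0.28 ± 0.08, Tmem167, a small membrane protein of the secretory pathway, by -0.36 ± 0.09, and Smg8, a regulator of nonsense-mediated decay, by -0.66 ± 0.19. Zfp800, Rnft1 and Mier3 differed by -0.44, -0.41 and -0.53. Ccdc13 had the largest difference of these 12 genes, -1.42 ± 0.39, at dim signals of 95.8, 88.4 and 60.4 on the control arrays and 9.83, 62.8 and 10.4 on the SEMA3A arrays. Fen1 and Hells are taken up with the replication genes. Tmem167 and Zfp800 had probe sets on both sides of 0.

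**Figure D2:**
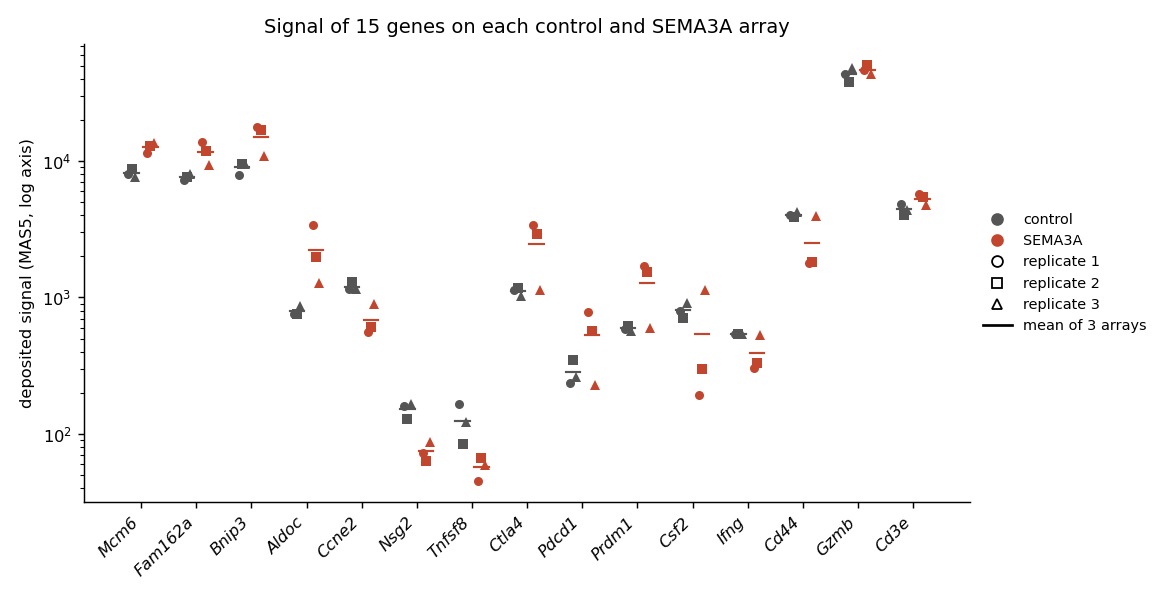
Deposited signal (y axis, log scale) of 15 genes on each of the 3 control (grey) and 3 SEMA3A (red) arrays; circles, squares and triangles are replicates 1, 2 and 3, and bars are means of 3 arrays. Mcm6 and Nsg2 separate the groups on all 3 arrays, whereas for Ctla4, Prdm1, Csf2 and Cd44 the SEMA3A replicate 3 lies with or beyond the controls.

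The receptor genes of SEMA3A gave dim signals. Nrp1, which encodes neuropilin-1, read 89, 103 and 82.4 on the control arrays and 64.6, 40.9 and 109 on the SEMA3A arrays, a difference of -0.42 ± 0.31; the groups overlapped because SEMA3A replicate 3 held the highest value. Its 4 probe sets past the filter ranged from -0.59 to 0.06. Plxna1, the A-class plexin gene of smallest p, read 88.3, 70 and 101 on the control arrays and 76.1, 35.6 and 70.3 on the SEMA3A arrays (-0.50 ± 0.25), again with overlap. Plxna3 and Plxna4 differed by -0.13 ± 0.23 and -0.44 ± 0.47, and Plxnd1, the receptor of class 3 semaphorins in vessels and thymocytes, by -0.21 ± 0.23. Nrp2, Plxna2, Sema3a and Sema6a stayed below the filter, and their highest signals on any of the 12 arrays were 51.5, 47.6, 51.3 and 44.6; an added protein does not show in an RNA measurement. Over the 11 tested receptor and partner genes, 1 was above 0 and 10 below, with a median difference of -0.21 against 0.01 for all tested genes. None of the 11 had an unadjusted p below 0.05. The gene above 0 was Cd72, the receptor of the class 4 semaphorin CD100 on B cells, at 0.23 ± 0.13. Without SEMA3A replicate 3 the median was -0.27. In that fit 2 of the 11 had an unadjusted p below 0.05, both lower, beside 7.68% of all genes. Without replicate 2 the median was -0.12, with 4 above and 7 below 0 and 0 at an unadjusted p below 0.05.

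Other semaphorins and the machinery behind plexins followed. Of 10 semaphorin genes tested, 7 were above and 3 below 0, none with an unadjusted p below 0.05. Sema6d, a class 6 semaphorin, had the smallest p of them and read 7039, 7755 and 8644 on the control arrays and 9082, 9769 and 8037 on the SEMA3A arrays (0.18 ± 0.11), with overlap. Sema4a, which costimulates T cells, differed by 0.27 ± 0.17, and Sema7a, a membrane-anchored semaphorin that binds integrins, by -0.44 ± 0.30. Sema3f, a secreted semaphorin that binds neuropilin-2, had the largest difference of the 10 and read 356, 234 and 176 on the control arrays and 307, 88 and 87.8 on the SEMA3A arrays (-0.80 ± 0.50), with overlap. Sema6d, Sema4a and Sema7a had probe sets on either side of 0. Of 32 tested genes of plexin signalling and the cytoskeleton, 22 were above 0, with a median of 0.06. Rhog, a small GTPase upstream of Rac, was the member with the smallest p, at 2551, 2298 and 2723 on the control arrays and 3098, 3019 and 3059.7 on the SEMA3A arrays (0.29 ± 0.10), without overlap. Tln1, the talin that activates integrins, differed by 0.30 ± 0.15, Rras2 by 0.13 ± 0.07, Rap1b by -0.09 ± 0.06 and the Src family kinase gene Fyn by 0.19 ± 0.12.

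The glycolysis and oxygen-sensing lists lay mostly on the higher side. Glycolytic enzymes turn glucose to lactate, and many of their genes are targets of the hypoxia-inducible factors, which bind ACGTG in promoters. Of 22 tested genes of glucose uptake, glycolysis and lactate transport, 19 were above 0, with a median of 0.34; 13 had an unadjusted p below 0.05 on the higher side, where the share over all genes was 4.88%, and 1 on the lower. All 3 SEMA3A arrays were above all controls for 13 of the 22, against 9.93% of all genes. Of 30 tested oxygen-sensing and hypoxia genes, 27 were above 0, with a median of 0.31, 14 with an unadjusted p below 0.05, all higher, and 12 without overlap on the higher side. The lists were chosen with earlier results of these arrays known, so the counts are a description.

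Because 3 hypoxia genes had the smallest p of both lists, their promoters are shown, each 300 bases from 250 before to 50 after the RefSeq start of the gene, 5′ to 3′ on the gene's own strand (build GRCm38.p6). Capitals mark ACGTG read on either strand, that is ACGTG or CACGT, and CACGTG where both overlap. Fam162a lies at chr16:36071512-36071811, Bnip3 at chr7:138909457-138909756 and Ankrd37 at chr8:45999801-46000100, each on the minus strand.
Fam162a: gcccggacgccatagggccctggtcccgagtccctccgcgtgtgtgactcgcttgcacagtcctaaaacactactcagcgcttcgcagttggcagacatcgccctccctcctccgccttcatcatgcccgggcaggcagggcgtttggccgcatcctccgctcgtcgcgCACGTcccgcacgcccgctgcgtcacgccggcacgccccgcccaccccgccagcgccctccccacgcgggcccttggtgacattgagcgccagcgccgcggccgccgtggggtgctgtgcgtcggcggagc
Bnip3: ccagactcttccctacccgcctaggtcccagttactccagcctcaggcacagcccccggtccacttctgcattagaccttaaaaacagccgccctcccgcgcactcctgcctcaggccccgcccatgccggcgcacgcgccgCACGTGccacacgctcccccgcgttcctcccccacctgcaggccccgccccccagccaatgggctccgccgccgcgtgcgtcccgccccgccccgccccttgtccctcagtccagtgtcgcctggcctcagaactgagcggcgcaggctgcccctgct
Ankrd37: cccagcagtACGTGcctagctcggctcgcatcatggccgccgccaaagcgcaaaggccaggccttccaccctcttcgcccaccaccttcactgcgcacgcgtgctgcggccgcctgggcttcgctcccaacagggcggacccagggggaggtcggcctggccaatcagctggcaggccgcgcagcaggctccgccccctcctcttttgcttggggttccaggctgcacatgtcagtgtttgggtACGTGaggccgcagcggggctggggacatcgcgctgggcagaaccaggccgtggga
The script found 1 match in the Fam162a window, 2 in that of Bnip3, which are the overlapping pair, and 2 in that of Ankrd37. Of the 52 tested members of both lists, 47 had a promoter in the RefSeq table, and 26 of these (55.3%) held the letters. The share was 26.3% of the 9211 promoters of tested genes and 19.7% of all 27025 promoters. A match describes the letters and does not show that a factor was bound. Because hypoxia target genes were put in these lists by choice, the share describes the lists and not the difference with SEMA3A.

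The genes of those promoters differed as follows. Fam162a, a mitochondrial protein induced by low oxygen, read 7217, 7599 and 8031 on the control arrays and 13796, 11756 and 9342 on the SEMA3A arrays (0.58 ± 0.13). Bnip3, which directs mitochondria to autophagy, read 7921, 9431 and 9499 on the control arrays and 17581, 16743 and 10851 on the SEMA3A arrays (0.70 ± 0.18). Ankrd37, a small ankyrin repeat protein, read 539, 647 and 531 on the control arrays and 2193, 1603 and 721 on the SEMA3A arrays (1.25 ± 0.34). For all 3 genes the groups did not overlap, replicate 3 was the lowest SEMA3A array, and it stood close above the highest control. Fam162a had a further probe set past the filter, at -0.10. P4ha1, a collagen prolyl hydroxylase subunit, differed by 0.61 ± 0.17 and Higd1a, a mitochondrial protein, by 0.34 ± 0.10, while the mRNA of the factor itself, Hif1a, differed by -0.07 ± 0.10 with overlapping groups (7727, 7785 and 10315 on the control arrays and 7303, 9029.98 and 8229 on the SEMA3A arrays). All 3 Hif1a probe sets past the filter were below 0. The lowest, at -0.59, was dim and did not overlap, at 52.6 to 61.0 on the control and 31.9 to 39.4 on the SEMA3A arrays.

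Along the glycolytic pathway, Pfkl, the liver-type phosphofructokinase that commits sugar to glycolysis, read 1122, 1211 and 1304 on the control arrays and 2237, 2239 and 1443 on the SEMA3A arrays (0.69 ± 0.22). Aldoc, aldolase C, read 761, 757 and 864 on the control arrays and 3394, 1966 and 1280.1 on the SEMA3A arrays and had the largest difference of the list, 1.37 ± 0.42. Tpi1, triose phosphate isomerase, differed by 0.48 ± 0.14, Pgam1, phosphoglycerate mutase, by 0.34 ± 0.09, and Pkm, pyruvate kinase, by 0.46 ± 0.13. All 5 lay above the controls on every SEMA3A array, and in each of them replicate 3 was the SEMA3A array nearest to the controls. One of the 3 probe sets of Pfkl past the filter was at -0.09. Averaged over the list, the SEMA3A arrays stood 0.53, 0.42 and 0.11 above the control mean, and the control arrays at -0.06, 0.04 and 0.01. For the oxygen-sensing genes the SEMA3A values were 0.58, 0.43 and 0.16 and the control values -0.06, 0.04 and 0.02. Replicate 3 was above all controls in both lists, by far less than its sister arrays. Without it the medians were 0.44 for glycolysis and 0.37 for oxygen sensing. Over all ways of leaving out 1 array they ranged from 0.25 to 0.44 and from 0.22 to 0.37.

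DNA replication genes lay on the other side. These encode the helicase subunits, polymerases and clamp loaders that copy the genome in S phase. Of 44 tested, 38 were below 0, with a median of -0.19; 11 had an unadjusted p below 0.05 on the lower side, where the background was 3.87%, and 2 on the higher. All 3 SEMA3A arrays were below all controls for 13 of the 44, against 7.30% of all genes. Fen1, the flap endonuclease of lagging-strand synthesis, read 7029.8, 6396 and 7772 on the control arrays and 4467, 4834 and 6089 on the SEMA3A arrays (-0.48 ± 0.12). Hells, a chromatin remodeller of dividing cells, read 4578, 5003 and 4461 on the control arrays and 3010.2, 3212 and 3974 on the SEMA3A arrays (-0.46 ± 0.12). Both were lower on all 3 SEMA3A arrays, with replicate 3 nearest to the controls. Prim2, a primase subunit, differed by -0.37 ± 0.12, and Mcm3 by -0.31 ± 0.11. Mcm6, at 0.61, thus went the other way from Mcm3, with which it forms one helicase ring. The other member on the higher side with an unadjusted p below 0.05 was the DNA ligase gene Lig1, named after its value was seen. The list mean was -0.30, -0.20 and 0.02 on the SEMA3A and -0.02, 0.00 and 0.03 on the control arrays, so that only replicates 1 and 2 stood below the controls; without replicate 3 the median was -0.28 and 19 of the 44 had an unadjusted p below 0.05 on the lower side, where 7.68% of all genes then did. Without replicate 1 the median was -0.12 and the count 3, and without replicate 2 they were -0.17 and 5, where 1.53% and 2.14% of all genes did.

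Markers of mitosis did not follow the replication genes in size. Of 31 tested, 20 were below 0 and the median was -0.06. Ccnb2, a mitotic cyclin, read 4184, 4623 and 4455 on the control arrays and 5381, 5316 and 4859.8 on the SEMA3A arrays (0.24 ± 0.08), above the controls on every SEMA3A array. Kif11, the kinesin that separates spindle poles, read 1708, 1823 and 1859 on the control arrays and 1601, 1482 and 1413 on the SEMA3A arrays (-0.25 ± 0.10), below them on every one. Mki67, the proliferation antigen Ki-67, differed by 0.08 ± 0.08. Among 26 G1 cyclins and CDK inhibitors the median was -0.05. Ccng2, a cyclin that goes with cell cycle arrest, read 1186, 1059 and 1193 on the control arrays and 2914, 2476 and 1536 on the SEMA3A arrays (0.98 ± 0.31), and Cdkn2b, the CDK4/6 inhibitor p15, read 2005, 1747 and 1682 on the control arrays and 2649, 2243 and 2207 on the SEMA3A arrays (0.40 ± 0.13). Neither overlapped between the groups. Cdkn2d differed by 0.20 ± 0.09 and Ccng1 by -0.16 ± 0.06. Of 21 genes of MYC and amino acid transport, 15 were below 0. Nop58, a core protein of the snoRNPs that modify ribosomal RNA, read 6091, 6273 and 5815 on the control arrays and 3967, 4595 and 4662 on the SEMA3A arrays (-0.46 ± 0.14), lower on all 3, and Odc1, which starts polyamine synthesis, read 12549.8, 14352 and 13215 on the control arrays and 8318, 8803 and 12615 on the SEMA3A arrays (-0.47 ± 0.16), with replicate 3 among the controls. Myc itself differed by -0.11 ± 0.17.

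Several genes of inhibitory receptors, which restrain T cells after activation, read higher on SEMA3A replicates 1 and 2 and near the controls on replicate 3. Ctla4 read 1138, 1169 and 1024 on the control arrays and 3410.4, 2898 and 1132 on the SEMA3A arrays, a difference of 1.03 ± 0.41. Lag3 read 299, 173 and 169 on the control arrays and 620.2, 646 and 209.6 on the SEMA3A arrays (1.04 ± 0.43), and Pdcd1, the gene of PD-1, read 238, 348 and 261 on the control arrays and 787, 566 and 227 on the SEMA3A arrays (0.72 ± 0.34). In these 3 genes replicate 3 lay within or below the range of the controls, so the groups overlapped and the means rest on the other SEMA3A arrays. Havcr2, the gene of TIM-3, differed by 0.33 ± 0.21, and Cd244a, the receptor 2B4, by 0.41 ± 0.22. Cd274, which encodes the PD-1 ligand PD-L1, read 499, 479 and 493 on the control arrays and 389, 380.4 and 409.98 on the SEMA3A arrays (-0.32 ± 0.13), lower on all 3 SEMA3A arrays. Of the 16 tested genes of the list, 11 were above 0, against 51.7% of all genes, and the median was 0.25. At an unadjusted p below 0.05 there were 2 on the higher side and 1 on the lower, where all genes had 4.88% and 3.87%. The list mean was 0.42, 0.49 and -0.06 on the SEMA3A arrays and 0.02, 0.06 and -0.08 on the control arrays. Without replicate 3 the counts at an unadjusted p below 0.05 were 7 higher and 2 lower, where 7.76% and 7.68% of all genes were. Without replicate 1, and likewise without replicate 2, they were 0 and 0. The median was 0.16 without control replicate 3.

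Several cytokine and chemokine genes (Csf2, Ifng, Lta, Ccl1 and Xcl1) read lower on SEMA3A replicates 1 and 2 and not on replicate 3. Csf2, the gene of GM-CSF, read 798, 712 and 916 on the control arrays and 193, 298 and 1134 on the SEMA3A arrays: replicates 1 and 2 were below every control and replicate 3 above every control. Ifng, interferon-gamma, read 538, 541 and 543 on the control arrays and 302, 332 and 534 on the SEMA3A arrays, and Lta, lymphotoxin alpha, read 1042, 1255 and 1147 on the control arrays and 439, 494 and 1075 on the SEMA3A arrays. For Ifng and Lta replicate 3 was near the control level. The differences were -0.98 ± 0.56 for Csf2, -0.52 ± 0.22 for Ifng and -0.88 ± 0.38 for Lta. Tnf differed by -0.25 ± 0.26, Tgfb1 by -0.13 ± 0.09 and the regulatory cytokine gene Il10, dim at 60.3, 126 and 51.7 on the control arrays and 152, 168 and 60.3 on the SEMA3A arrays, by 0.50 ± 0.32. Of 6 cytokine genes tested, 5 were below 0, with a median of -0.38, or -0.65 without replicate 3; 2 of the 6 had an unadjusted p below 0.05, both lower, beside 3.87% of all genes. Among 7 chemokine genes, 6 were below 0, with a median of -0.37 that ranged from -0.75 without SEMA3A replicate 3 to -0.07 without replicate 2, and 0 of the 7 had an unadjusted p below 0.05. Ccl1 read 229, 109 and 214 on the control arrays and 30, 35.3 and 214 on the SEMA3A arrays and Xcl1, the attractant of cross-presenting dendritic cells, 1691, 1233 and 973 on the control arrays and 244, 549 and 1600.3 on the SEMA3A arrays. Replicates 1 and 2 were below all controls in both genes, and replicate 3 was not.

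The genes of the killing machinery lay on both sides of 0. Gzmb read 43336, 38147 and 47885 on the control arrays and 46161, 50605 and 43273 on the SEMA3A arrays (0.05 ± 0.06) and Prf1, the pore-forming perforin, 13773, 13345 and 16135 on the control arrays and 21019, 16642 and 12679 on the SEMA3A arrays (0.15 ± 0.16), both with overlap. Fasl, the death ligand, differed by -0.02 ± 0.08. The 95% interval of the Gzmb difference was -0.07 to 0.18, that of Prf1 -0.19 to 0.48 and that of Fasl -0.20 to 0.15. Gzma, granzyme A, read 34417, 33519 and 31418 on the control arrays and 40438, 46425 and 36473 on the SEMA3A arrays (0.21 ± 0.07). Gzmk, a granzyme of memory-type cells, differed by 0.81 ± 0.35 and Gzmf by -0.44 ± 0.25. Serpinb9, which shields the cell from its own granzyme B, read 13971, 14038 and 15157 on the control arrays and 11637, 11827 and 13747 on the SEMA3A arrays (-0.25 ± 0.10), lower on all 3 SEMA3A arrays. Of 17 granule genes, 8 were above and 9 below 0, and the median was 0.00 to 2 decimals. At an unadjusted p below 0.05 there were 3 on the higher side and 1 on the lower, beside 4.88% and 3.87% of all genes.

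Among T cell receptor genes, Cd3e was at 4872, 4039 and 4389.8 on the control arrays and 5767, 5396 and 4737 on the SEMA3A arrays (0.27 ± 0.11) and Cd8a, the coreceptor of cytotoxic cells, at 3418, 3592 and 2333 on the control arrays and 1613, 3587 and 2627 on the SEMA3A arrays (-0.30 ± 0.31). Cd8a overlapped between the groups, with replicate 1 alone below the controls; without it the difference was 0.01. Cd6, a costimulatory receptor, read 199, 208 and 164 on the control arrays and 54, 78.4 and 192 on the SEMA3A arrays (-0.90 ± 0.42), with replicates 1 and 2 below the controls and replicate 3 at their level. Of 16 receptor complex genes, 10 were above 0, beside 51.7% of all genes. Of the 16, 1 had an unadjusted p below 0.05, on the higher side, beside 4.88% of all genes. Of 29 immediate early genes, which follow receptor triggering within minutes to hours, 22 were below 0, with a median of -0.13, 4 with an unadjusted p below 0.05 on the lower side and 1 on the higher, beside 3.87% and 4.88% of all genes. The median was -0.08 without SEMA3A replicate 1. Nr4a1, a close reporter of receptor signals, differed by -0.55 ± 0.23, Egr1 by -0.21 ± 0.09, Ier2 by -0.22 ± 0.10 and the phosphatase gene Dusp2 by -0.26 ± 0.11, while Jun differed by 0.29 ± 0.13. In the TNF family, Tnfsf4, the OX40 ligand, read 721, 602 and 681 on the control arrays and 503, 459 and 569 on the SEMA3A arrays (-0.38 ± 0.17), without overlap, and Tnfsf11, the ligand RANKL, differed by -0.61 ± 0.32. Over the 15 tested genes of that family 8 were above and 7 below 0.

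Some genes of differentiation and homing divided the SEMA3A arrays as the inhibitory receptors did. Prdm1, which encodes BLIMP-1, a factor of terminal effector differentiation, read 591, 613 and 572 on the control arrays and 1699, 1541 and 595 on the SEMA3A arrays (0.97 ± 0.34). Cd44, the hyaluronan receptor of activated cells, read 4001, 3914 and 4228 on the control arrays and 1793, 1803 and 3979 on the SEMA3A arrays (-0.78 ± 0.32), and 3 of its 3 probe sets past the filter were below 0. Replicate 3 lay inside the control range for both genes. Klf2, a factor of quiescence and recirculation, differed by 0.54 ± 0.19, Cxcr4 by 0.61 ± 0.24, and the lymph node homing receptor gene Ccr7 by -0.95 ± 0.41 at 298, 291 and 335 on the control arrays and 89.5, 179 and 214 on the SEMA3A arrays, here lower on every SEMA3A array. Tbx21, an effector regulator, read 1457, 1112 and 1177 on the control arrays and 1327, 1202 and 1236 on the SEMA3A arrays (0.02 ± 0.17). Its relative Eomes read 6401, 6381 and 7001 on the control arrays and 6631, 6212 and 6880.02 on the SEMA3A arrays (-0.01 ± 0.08), and both overlapped between the groups. Of 18 lineage factors 12 were above 0, and of 17 homing genes also 12.

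Receptors of interleukin-2 and related cytokines were mostly on the higher side, 15 of 20 above 0 with a median of 0.10, beside 51.7% of all genes above 0. Without SEMA3A replicate 2 it was 11 of 20, with a median of 0.05. Il18rap, the accessory chain of the interleukin-18 receptor, read 1548, 1147 and 1290.05 on the control arrays and 2254, 2087 and 1687 on the SEMA3A arrays (0.61 ± 0.17), above all controls on every SEMA3A array. Jak3, the kinase of the common gamma chain, read 647, 609.5 and 619 on the control arrays and 1059.6, 870.4 and 688 on the SEMA3A arrays (0.46 ± 0.15), also without overlap. Il2ra, the high-affinity interleukin-2 receptor chain, read 3972, 3959 and 4026 on the control arrays and 5381, 5428 and 3759 on the SEMA3A arrays (0.28 ± 0.18), and there replicate 3 was below every control. A further Il2ra probe set past the filter was at -0.10. Pim2, a survival kinase induced by cytokines, differed by 0.53 ± 0.20, and Il4ra by -0.28 ± 0.12. Among 16 BCL2 family genes 11 were above 0, and Bik, which promotes apoptosis, read 109, 80.8 and 93.4 on the control arrays and 63.3, 52.7 and 59.1 on the SEMA3A arrays (-0.61 ± 0.24).

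Interferon response genes lay to the lower side on replicate 1 above all. Of 27 tested type I genes 17 were below 0, with a median of -0.08, and the list mean was -0.35, -0.07 and 0.01 on the SEMA3A and 0.05, 0.03 and -0.08 on the control arrays. Eif2ak2, the double-stranded RNA sensor kinase PKR, read 355, 285 and 346 on the control arrays and 159, 292 and 192 on the SEMA3A arrays (-0.63 ± 0.23); the other probe sets past the filter lay on the other side of 0. Cmpk2 differed by -0.67 ± 0.26, Ifit2 by -0.37 ± 0.15, and Isg20 by 0.55 ± 0.25. Of 14 genes of the interferon-gamma response 4 were above 0, beside 51.7% of all genes, and 10 below. The mean of that list was -0.35, 0.23 and -0.16 on the SEMA3A arrays and 0.06, 0.16 and -0.22 on the control arrays. Without SEMA3A replicate 1, 7 were above and 7 below 0. Of 8 genes of the MHC class II pathway 7 were above 0, with H2-DMa at 0.48 ± 0.22. Psmb9, a subunit of the immunoproteasome, read 6769, 6715 and 6701 on the control arrays and 7138, 8404 and 7682 on the SEMA3A arrays (0.20 ± 0.09).

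Lipid, redox and iron genes completed the metabolic picture of these arrays. Of 27 cholesterol and fatty acid genes 20 were above 0, with a median of 0.08, 8 of them without overlap on the higher side, against 9.93% of all genes. The median was 0.15 without SEMA3A replicate 2 and 0.14 without replicate 3. Scd1, the stearoyl-CoA desaturase, read 4234, 4945 and 4647 on the control arrays and 7338, 6317 and 5316 on the SEMA3A arrays (0.44 ± 0.13). Mvd and Pmvk, enzymes of the mevalonate pathway, differed by 0.42 ± 0.14 and 0.36 ± 0.13, while Idi1, the next enzyme after Mvd, differed by -0.28 ± 0.12. Of 20 NADPH and antioxidant genes 13 were above 0, with Idh1, cytosolic isocitrate dehydrogenase, at 0.55 ± 0.20 and Taldo1, transaldolase, at 0.27 ± 0.10 and 3164, 3090.2 and 3185 on the control arrays and 3841, 3877 and 3625 on the SEMA3A arrays. Of 24 genes of the unfolded protein and amino acid stress responses 19 were above 0, and Atf4, their common transcription factor, differed by 0.25 ± 0.08. Iron and haem genes had 10 of 15 below 0. Cpox, an enzyme of haem synthesis, differed by -0.76 ± 0.26, the haem exporter gene Flvcr1 by -0.38 ± 0.14, and Tfrc, the transferrin receptor, by -0.32 ± 0.12 at 12369.7, 13295 and 13197 on the control arrays and 9280.4, 9988 and 12917 on the SEMA3A arrays. Flvcr1 and Tfrc each had a further probe set past the filter on the other side of 0, at 0.26 and 0.06.

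Respiration, the proteasome and the ribosome were near 0. Of 37 genes of oxidative phosphorylation 29 were above 0, but the median was 0.04 and turned to -0.01 when arrays were centred on their medians. Ndufa5, a complex I subunit, differed by -0.24 ± 0.11 and Cycs, cytochrome c, by -0.19 ± 0.09. A further Ndufa5 probe set past the filter was at 0.01. The 27 proteasome genes had a median of 0.05, which likewise turned to -0.01, and the 20 ribosomal protein genes had 9 above and 11 below 0.

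**Figure D3:**
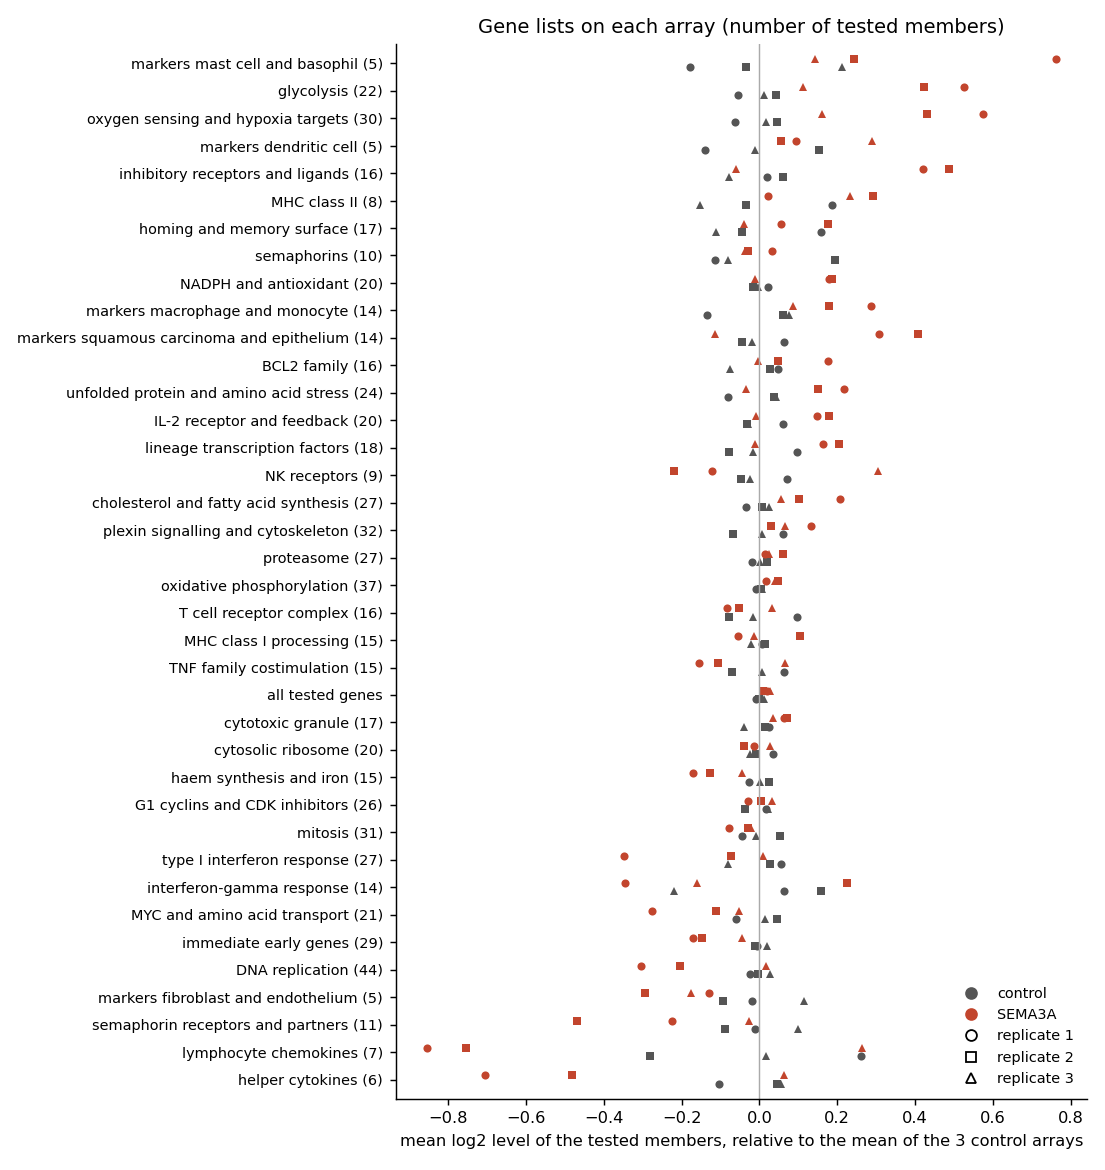
Mean quantile-normalised log2(signal + 16) of the tested members of each gene list with at least 5 of them (x axis, relative to the mean of the 3 control arrays) on the control (grey) and SEMA3A (red) arrays; circles, squares and triangles are replicates 1, 2 and 3, and numbers in brackets are tested members. Glycolysis and oxygen sensing have all 3 SEMA3A arrays above the controls, whereas for inhibitory receptors, chemokines and cytokines replicate 3 lies with or beyond the controls.

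Markers of other cells moved with some of these lists. Kit, the stem cell factor receptor of mast cells and progenitors, read 377, 451 and 459 on the control arrays and 890.05, 661 and 537 on the SEMA3A arrays (0.67 ± 0.19), and Fcgr3, an Fc receptor of NK and myeloid cells, 546, 417 and 522 on the control arrays and 1404, 1082 and 759 on the SEMA3A arrays (1.07 ± 0.28). Both were higher on all 3 SEMA3A arrays. All 5 tested mast cell and basophil markers of 14 on the array were above 0. The summed signal of all 14 was 2820 to 3576 on the control arrays and 5817, 3753 and 3271 on the SEMA3A arrays. One of them, Mcpt8, a basophil protease, read 1937, 1922 and 2548 on the control arrays and 4108, 2328 and 2157 on the SEMA3A arrays. Of 29 macrophage and monocyte markers on the array 14 passed the filter, 10 of them above 0 and 4 below. All 29 summed to 14760 to 16148 in controls and 17822, 15327 and 16035 with SEMA3A. Most of that sum was the protease genes Ctsd, at 10133 to 11054 in controls and 9685 to 11418 with SEMA3A, and Ctsb. Ctsb read 2464 to 2969 and 2798 to 2997. Unlike Fcgr3, Ms4a6d had a lower mean with SEMA3A, 320 against 423 in controls. All 16 neutrophil markers on the array, of which 3 passed the filter, summed to 1077 to 1214 in controls and 1922, 1772 and 1052 with SEMA3A. The 3 were Ctsg, Ltf and Il1r2. Ctsg, the largest part of the sum, read 752 to 888 in controls and 763 to 1265 with SEMA3A, and Ltf 41.6 to 51.1 and 39.9 to 312. Il1r2, the decoy receptor of interleukin-1, differed by 1.15 ± 0.49. The neutrophil genes S100a8, S100a9, Mpo and Elane did not pass the filter.

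The tumour cells were looked for too. Of 27 squamous and epithelial markers on the array 14 passed the filter, 11 of them above 0. All 27 summed to 3308 to 3841 in controls and 3862, 4035 and 3212 with SEMA3A. Krt19 read 52.6, 27.3 and 20 on the control arrays and 163, 239 and 25.1 on the SEMA3A arrays (1.30 ± 0.53), so that it was higher on replicates 1 and 2 alone. Trp63, which defines squamous cells, did not pass the filter, and the keratin gene Krt5 was dim, at 48.2 to 63.4 in controls and 44.2 to 78.0 with SEMA3A. The brighter epithelial markers, named after their values were seen, overlapped between the groups. Cdh1, the gene of E-cadherin, read 1084 to 1867 in controls and 1048 to 1306 with SEMA3A, and Epcam, an epithelial adhesion molecule, read 610.1 to 1104 and 867 to 1132. The desmosomal cadherin gene Dsg2 read 292 to 322 and 245 to 393, and Perp, a further desmosomal gene, read 184 to 264 and 134 to 213. Dendritic cell markers summed to 777 to 906 in controls and 768 to 949 with SEMA3A. Of the 5 tested, 3 were above 0 and 2 below. Itgax, the gene of CD11c, which activated T and NK cells also carry, read 79.6, 82.1 and 85.4 on the control arrays and 117, 172 and 132 on the SEMA3A arrays (0.60 ± 0.18). Batf3 went the other way without overlap, at 201 to 323 in controls and 122 to 172 with SEMA3A. All 14 B cell markers on the array, 4 of them past the filter, summed to 513 to 639 in controls and 609, 1165 and 537 with SEMA3A. The widest range within that sum was that of Ighm, at 156 to 295 in controls and 195 to 658 with SEMA3A. Cd22 read 49.6 to 71.6 and 49.0 to 63.2, and Ms4a1, below the filter, 25.9 to 43.9 and 31.2 to 40.9. Fibroblast and endothelial markers summed to 23163 to 26152 in controls and 21092 to 25620 with SEMA3A and include Thy1, which T cells carry. Among 9 NK receptor genes 6 were above 0. Fcer1g, an adaptor of NK and myeloid receptors, read 13476, 13258 and 14219.7 on the control arrays and 17939.8, 15948 and 15248 on the SEMA3A arrays (0.23 ± 0.07), while Klrc1, the inhibitory receptor NKG2A, differed by -0.72 ± 0.31. The part of these cells in the results was not tested.

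The design also allowed the same difference to be taken where the tumour cells overexpressed SEMA6A, a membrane semaphorin that binds the same class of plexins. That comparison uses 6 other arrays, so it shares none with the one above. Of its arrays, SEMA6A replicate 2 had the highest 3′ to 5′ ratio of Gapdh, 1.22, and SEMA6A replicate 1 lay nearer to the control arrays than its sister arrays did (r = 0.989 to 0.991). The transferrin receptor ratio was 8.39, 35.7 and 23.3 on the SEMA6A arrays and 12.2, 5.93 and 11.2 on those with both factors. That of pyruvate carboxylase was 6.86, 15.5 and 10.3 against 4.54, 4.36 and 5.81, without overlap, and the part of RNA integrity in this comparison was not tested. In a limma fit over all 12 arrays, 0 genes (0%) had an adjusted p below 0.05 for the interaction, that is for a difference of SEMA3A that depended on SEMA6A; the lowest adjusted p was 0.197, and 2041 genes (18.0%) had an unadjusted p below 0.05. The count of 0 rests on single arrays: it was 1285 genes without SEMA6A replicate 1, 281 without SEMA3A replicate 3 and 1584 with arrays weighted by their fit. It stayed at 0 when any other array was left out, SEMA6A replicate 2 included.

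Across the 11325 genes the difference with SEMA3A in the absence of SEMA6A correlated with that in its presence at r = -0.42 (Spearman's rho = -0.43). It was -0.50 without SEMA3A replicate 3, -0.50 without SEMA6A replicate 1 and -0.28 without SEMA6A replicate 2. The genes are not independent and share arrays, depth and scaling within each comparison, so no p is given. Of the 553 higher genes with an unadjusted p below 0.05, 447 (80.8%) were below 0 where SEMA6A was present, and of the 438 lower ones 362 (82.6%) were above 0, where 50.3% and 49.7% of all genes were. For glycolysis the median was 0.34 without and -0.24 with SEMA6A, and for oxygen sensing it was 0.31 and -0.31. Replication genes stood at -0.19 and 0.19, inhibitory receptors at 0.25 and -0.28, and cytokines at -0.38 and 0.65. Without SEMA6A replicate 1 the medians in its presence were -0.33, -0.45, 0.26, -0.45 and 0.82 in the same order, and without SEMA6A replicate 2 they were -0.18, -0.24, 0.09, -0.20 and 0.51.

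**Figure D4:**
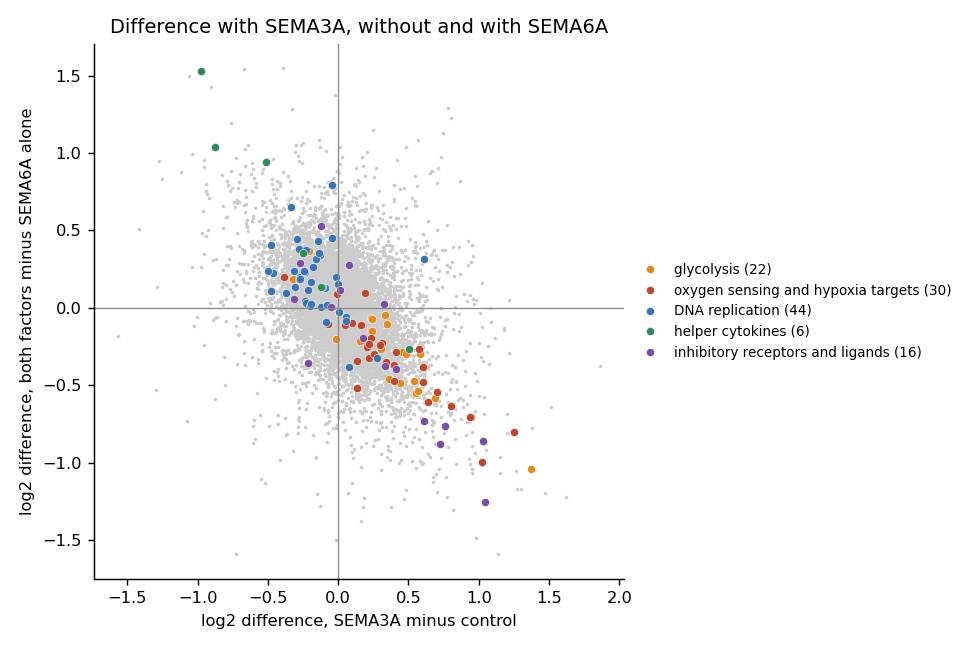
Log2 difference, SEMA3A minus control (x axis), against the log2 difference of both factors minus SEMA6A alone (y axis), for all 11325 tested genes in grey and the tested members of 5 lists in colour. Most glycolysis and hypoxia genes lie right of 0 and below 0, and most DNA replication genes left of 0 and above 0.

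Single genes show which arrays carried this. Bnip3 read 10760.4, 15810 and 16347 on the SEMA6A arrays and 9535, 9187 and 10314 on those with both factors, a difference of -0.54. Its interaction was -1.24 ± 0.25 (limma, unadjusted p = 0.00026, adjusted p = 0.197). Ifng read 444, 326 and 248 with SEMA6A and 677, 662 and 588 with both, a difference of 0.94, and its interaction was 1.46 ± 0.32 (limma, adjusted p = 0.197). In both genes the arrays with both factors were all on one side of the SEMA6A arrays. Ctla4 read 1083, 3692 and 2613 with SEMA6A and 1140.1, 1087 and 1367 with both. There SEMA6A replicate 1 stood at the level of the control arrays, as SEMA3A replicate 3 did, and the other SEMA6A arrays stood near SEMA3A replicates 1 and 2. Mcm6 was at 8412, 10754 and 12597 with SEMA6A and 13411, 12132 and 13597 with both, a difference of 0.32, in the same direction as without SEMA6A.

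**Figure D5:**
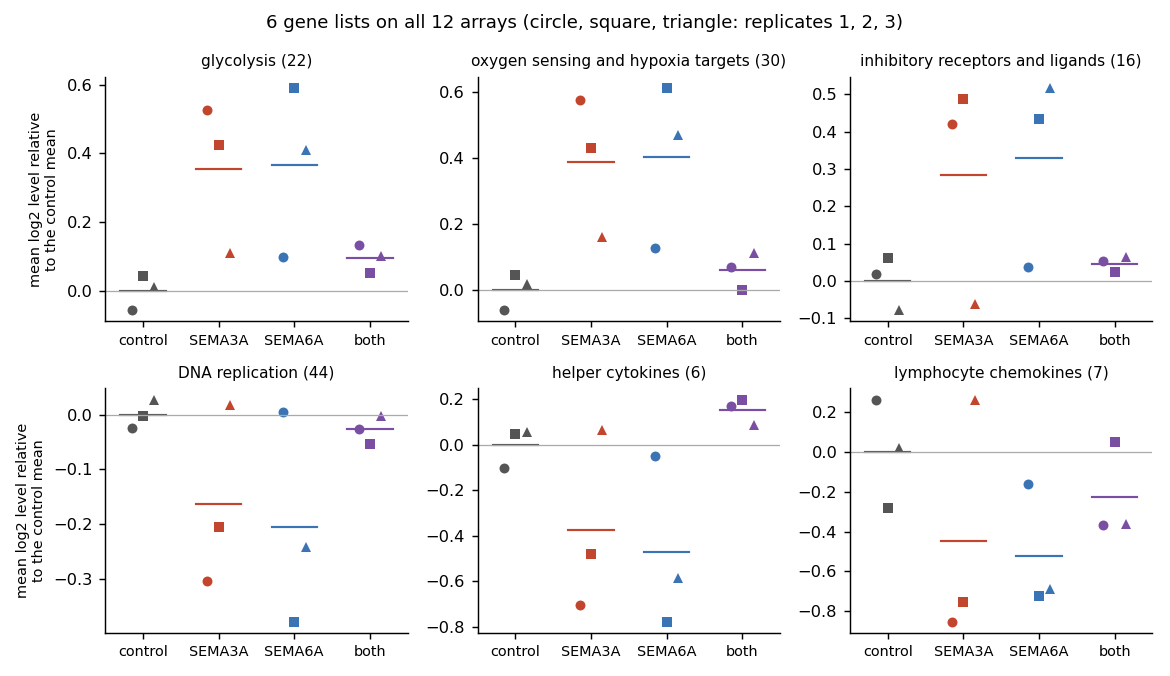
Mean quantile-normalised log2(signal + 16) of 6 gene lists, relative to the control mean (y axis), on the 3 arrays of each of the 4 groups (x axis; both, SEMA6A and SEMA3A together); symbols are replicates 1 to 3 and bars are group means. In all 6 lists the arrays with 1 added factor spread widely, and SEMA3A replicate 3 and SEMA6A replicate 1 are the arrays of their groups nearest to the control mean.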

How the data were processed

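Splenocyte RNA (6 µg per sample) was labelled and hybridised to Affymetrix mouse arrays. The authors deposited 1 signal intensity per probe set and array, computed with MAS5 (named in the submitters' processing notes, version not given in the sources here), which subtracts mismatch probes and leaves dim probe sets noisy. On every array the mean intensity without the outer 2% of probe sets was 500, which is a test of the deposited values. Of 45101 probe sets, 34945 had 1 gene in GEO's platform annotation, 932 several and 9160 were not listed. For 34754 probe sets the Entrez ID was found in RefSeq, and 0 symbols changed.

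Intensities were taken as log2(signal + 16) and quantile-normalised over the 12 arrays. Probe sets were kept where they exceeded the array's median on at least 3 arrays, and the probe set of highest mean stood for its gene, which left 11325 genes. limma 3.58.1 in R 4.3.3 fitted 4 group means to all 12 arrays with a prior trend, with Benjamini-Hochberg adjustment, and the code was tested on simulated data. Because of the 3 arrays per group, an exact permutation test of a single value could not go below p = 0.1. Named genes were the 12 of smallest p in each direction (without clones, predicted genes and receptor segments), up to 5 of smallest p per list, and a panel of T cell and semaphorin genes. The members and 40 gene lists were chosen with earlier results of these data known. Alternatives were no further normalisation, median centring, pseudocounts of 1 and 64, other filters and probe set rules, array weights, the 6 arrays alone, a replicate block and leaving out each array. Marker sums add the signals of all markers on the array, with those that did not pass the filter included.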

Additional observations from a re-analysis of the deposited data

Results flagged for a closer look

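Of the 40 gene lists, those with at least 5 tested members were looked through. In 10 of them every SEMA3A array lay on one side of the control mean, and every array with both factors lay on the other side of the mean of the SEMA6A arrays. Single arrays could still overlap. In plexin signalling SEMA3A replicate 2 (0.03) lay below control replicate 1 (0.06). For the macrophage and monocyte markers SEMA6A replicate 1 (-0.18) lay below every array with both factors. The difference between these directions was not tested for any list. The values are mean log2 differences over the tested members. The glycolysis list stood at 0.3539 without and -0.27 with SEMA6A, and the oxygen sensing list at 0.3887 without and -0.3419 with SEMA6A. Cholesterol and fatty acid synthesis stood at 0.1212 without and -0.1093 with SEMA6A, and plexin signalling and the cytoskeleton at 0.0759 without and -0.1256 with SEMA6A. The macrophage and monocyte markers were at 0.1846 without and -0.0429 with SEMA6A, and the cytotoxic granule genes at 0.056 without and -0.0168 with SEMA6A. On the lower side, MYC and amino acid transport stood at -0.1466 without and 0.0967 with SEMA6A, haem synthesis and iron at -0.1141 without and 0.0624 with SEMA6A, mitosis at -0.0429 without and 0.0485 with SEMA6A, and the fibroblast and endothelial markers at -0.2007 without and 0.1256 with SEMA6A.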

How the results depend on the processing

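The count of genes at an adjusted p below 0.05 for SEMA3A against control was 0 under each of the 24 alternatives run, and the lowest adjusted p under any of them was 0.083, with array weights. The number at an unadjusted p below 0.05 (991) was 1736 when every probe set was tested on its own and 2174 with array weights, and leaving out 1 array gave 408 to 1737; it was 602 without control replicate 2, 544 without SEMA3A replicate 2 and 1574 without SEMA6A replicate 2. For the interaction, leaving out 1 array gave 0 to 1285 genes past the threshold, and array weights gave 1584. Some differences changed sign, each of a gene that did not pass. Taking the probe set with the widest interquartile range turned Cert1 to -0.69, Fasl to 0.025, Rap1b to 0.025, Rras2 to -0.21, Sema4a to -0.12, Sema6d to -0.10, Tmem167 to 0.10 and Whamm to -0.18. Median centring turned Tbx21 to -0.061, and array weights turned Tbx21 to -0.002. Leaving out 1 array gave ranges that cross 0, from -0.58 to 0.010 for Cd8a, -0.032 to 0.024 for Eomes, -0.079 to 0.037 for Fasl, -0.15 to 0.050 for Hif1a, -0.20 to 0.0006 for Myc, -0.27 to 0.086 for Plxna3, -0.78 to 0.24 for Plxna4, -0.43 to 0.072 for Plxnd1, -0.020 to 0.32 for Prf1, -0.050 to 0.14 for Tbx21 and -0.52 to 0.027 for Tnf. Median centring turned the medians of the oxidative phosphorylation and proteasome lists to -0.01 each. Replicate numbers are shared by the groups, but same-numbered control and SEMA3A arrays deviated together by only r = 0.033, 0.142 and 0.049, so the numbers were not taken as pairs; with a replicate block 789 genes had an unadjusted p below 0.05 and 0 an adjusted one. Dim genes such as Ccdc13, Nrp1 and Krt19 had wide standard errors. The causes of these shifts were not tested.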
